A study of Mus musculus with 7 samples.

Results

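The genes described here encode the 4 platelet-derived growth factor (PDGF) ligands, Pdgfa, Pdgfb, Pdgfc and Pdgfd, and the 2 PDGF receptors, Pdgfra and Pdgfrb. They were chosen by name, and all 6 were found among the 55401 genes of the deposited count table. All 6 were also among the 17465 genes with enough reads to be tested. The libraries came from right lung lobes of 7 male C57BL/6 mice, with 1 library per mouse. The mice were 6 to 8 weeks old when used to set up the lung fibrosis model. All 7 mice had received bleomycin, an antibiotic used to injure the lung and bring on fibrosis, and were randomly assigned to a group on day 7. The 3 mice of the BLM+HBO group then breathed hyperbaric oxygen, which is oxygen under raised pressure in a chamber, at 2.5 ATA for 90 min a day over 14 days. For the 4 mice of the BLM group the sample records describe time in the chamber without that pressurisation and the Supplementary methods describe no treatment, which was not settled here. Lungs of both groups were taken on day 21. No lung without bleomycin was among the libraries, so all values compare injured lungs with injured and oxygen-treated lungs. The methods left out mice that lost too little weight after bleomycin, so the groups stand for mice in which the injury took hold.

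PDGFs are secreted dimers that pair 2 receptor tyrosine kinases on the target cell. PDGF-A binds the alpha receptor, PDGF-B binds both receptors, PDGF-C acts mainly through the alpha receptor and PDGF-D mainly through the beta receptor. PDGF-A and PDGF-B are trimmed inside the cell by furin-type enzymes, whereas PDGF-C and PDGF-D leave the cell with a masking CUB domain that plasminogen activators and related proteases remove. In the lung, Pdgfra marks fibroblasts, including the lipid-laden and septal ones of the alveolus, and Pdgfrb marks pericytes and other mural cells. PDGF-A is made largely by epithelium and PDGF-B by endothelium, platelets and macrophages. The pathway is best known in fibrosis as a signal for fibroblast growth and migration.

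The libraries held between 18157161 and 26365969 reads counted to genes. On the first principal component, which held 37.3% of the variance, BLM+HBO 2 lay at -0.996. That was nearer to the BLM mice, which lay between -47.6 and -6.08, than to BLM+HBO 1 and BLM+HBO 3 at 54.8 and 37.8. Each PDGF result that turned on BLM+HBO 2 is therefore given with and without it. BLM+HBO 2 was singled out by these same expression values, so leaving it out favours wider differences between the groups. Values without it are a description and not a test. Markers of whole lung tissue (alveolar, endothelial and fibroblast genes) were present in every library, and heart muscle genes were present as well and varied, as given with the cell markers below.

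The regions in front of the transcription start are given as context for the values of these genes. RefSeq gave a start on GRCm38.p6 for 4 of the 6 genes, and Pdgfb and Pdgfrb had no entry. The 250 bases before each start were searched on both strands for the hypoxia response element core (ACGTG or GCGTG), the GC box (GGGCGG), the AP-1 site (TGANTCA), the TATA box (TATAAA) and the CArG box, the site of serum response factor. The regions of Pdgfc, Pdgfra and the upstream start of Pdgfa are printed 5′ to 3′ on the strand of the gene, because Pdgfc and Pdgfra had the lowest unadjusted P values of the family and the Pdgfa region held an oxygen-related motif. Capitals mark the motifs found.
Pdgfc, chr3:81036166-81036415, plus strand: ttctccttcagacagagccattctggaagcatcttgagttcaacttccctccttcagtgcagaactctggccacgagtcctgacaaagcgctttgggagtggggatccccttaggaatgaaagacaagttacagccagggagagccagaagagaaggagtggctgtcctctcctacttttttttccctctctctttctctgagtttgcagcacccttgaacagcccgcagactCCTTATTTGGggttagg
Pdgfra, chr5:75152001-75152250, plus strand: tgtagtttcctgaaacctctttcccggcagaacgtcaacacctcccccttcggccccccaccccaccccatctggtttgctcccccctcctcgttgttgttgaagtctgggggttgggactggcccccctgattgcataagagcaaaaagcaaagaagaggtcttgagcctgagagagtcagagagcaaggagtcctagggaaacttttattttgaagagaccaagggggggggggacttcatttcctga
Pdgfa, chr5:138994945-138995194, minus strand: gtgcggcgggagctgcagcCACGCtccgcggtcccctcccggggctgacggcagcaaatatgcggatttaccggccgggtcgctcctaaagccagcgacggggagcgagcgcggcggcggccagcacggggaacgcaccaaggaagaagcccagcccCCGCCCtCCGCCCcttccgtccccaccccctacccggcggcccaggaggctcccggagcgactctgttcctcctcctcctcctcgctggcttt
In Pdgfc the capitals are 1 CArG box, whose first base lay 17 bases before the start. Of 32851 promoters of the same length 1.47% held a CArG box. For Pdgfra none of the 5 motifs was found in this window. The Pdgfa region held 1 hypoxia core, 231 bases before the start, and 2 GC boxes, motifs present in 38.6% and 32.7% of all promoters. The other Pdgfa start held a GC box 60 bases before it, and the Pdgfd start held a TATA box 160 bases before it, a motif found in 12.4% of promoters. The AP-1 site, found in 6.75% of promoters, was in none of the 5 regions. The shares of G and C were 50.8% for Pdgfc, 54.4% for Pdgfra and 72.4% for the printed Pdgfa region, beside a median of 52.4% over all promoters. These matches describe letters only, and no binding was measured.

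The first comparison asked how the 6 genes differed between BLM+HBO and BLM lungs. Pdgfc fell, both receptors had lower means without passing both thresholds, and the differences in Pdgfa, Pdgfb and Pdgfd were within their error. Levels are given as CPM, the read count of a gene scaled to its library's total after trimmed mean of M-values (TMM) normalization. A gene was called where edgeR's quasi-likelihood test gave an unadjusted P below 0.05 and the fold change was above 1.5, which are the thresholds of the study. By this rule 1 of the 6 genes was called, Pdgfc, and 6.29% of all tested genes were called, 2.89% lower and 3.4% higher. With 6 genes, 1 call cannot be set apart from that share. DESeq2 also called Pdgfc alone, beside 6.72% of all genes, and limma-trend called Pdgfc and Pdgfrb, beside 6.68%. After Benjamini-Hochberg adjustment over all 17465 genes, edgeR called 0 genes at 0.05, among them 0 of the 6. At an unadjusted P below 0.05 alone there were 2 of 6 by edgeR and 3 of 6 by DESeq2 and by limma-trend, and both of those tools also called 0 of 6 after adjustment. Over all genes, 10.7% had an unadjusted P below 0.05 by edgeR, 5.54% lower, and 0.704% passed the adjusted limit by DESeq2. The fitted log2 difference was negative for 4 of the 6, with a median of -0.35, beside 0.01 over all genes tested. The ranges of the groups stayed apart in 0 of the 6 and in 8.77% of all genes tested.

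**Figure D1:**
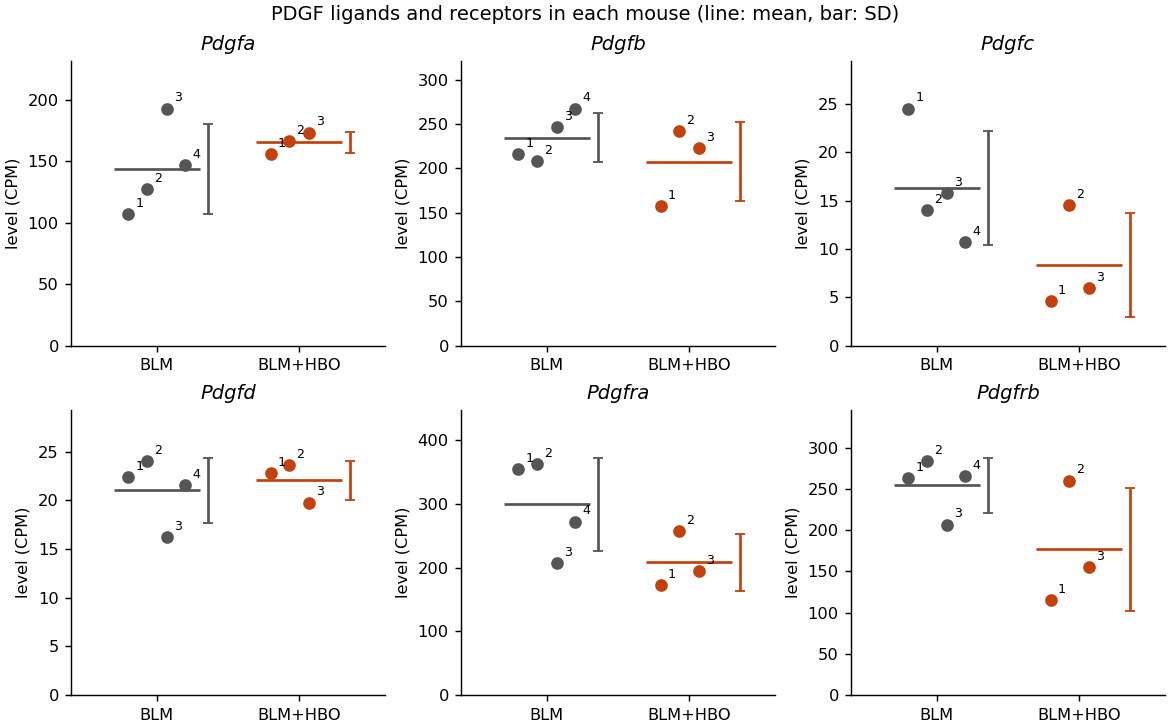
Level of each PDGF gene in CPM (y axis, from 0) in the 4 BLM mice (grey) and the 3 BLM+HBO mice (orange), numbered by replicate, with the group mean as a line and the SD as a bar. In Pdgfc and Pdgfrb, BLM+HBO 1 and BLM+HBO 3 lie below all BLM mice and BLM+HBO 2 lies among them.

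Among the ligands, Pdgfc (ENSMUSG00000028019.9, chromosome 3, 81036416 to 81214040, plus strand) encodes PDGF-C, which fibroblasts and epithelium secrete in the masked form. It read 24.5, 14.0, 15.8 and 10.7 CPM in BLM 1 to 4 and 4.63, 14.5 and 5.96 CPM in BLM+HBO 1 to 3. BLM+HBO 1 and BLM+HBO 3 were below every BLM mouse, and BLM+HBO 2 was above BLM 2 and BLM 4, so the groups overlapped. Counting error was small beside these gaps, with exact Poisson 95% intervals of 3.71 to 5.71 CPM for BLM+HBO 1, 5.07 to 6.96 for BLM+HBO 3 and 9.32 to 12.3 for BLM 4. The intervals cover counting error only.

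The group means of Pdgfc were 16.3 ± 5.88 CPM (SD, n = 4) and 8.38 ± 5.38 CPM (SD, n = 3). Its level fell 1.94-fold, a log2 fold change of -0.96 (SE 0.41, 95% interval -1.87 to -0.04), with an unadjusted P below 0.05 and an adjusted P of 0.459 by edgeR's quasi-likelihood test. Of all tested genes, 2.26% had a lower log2 fold change. DESeq2 gave -0.96 with an adjusted P of 0.277, and limma-trend gave -1.06 with an adjusted P of 0.403. Over all alternatives the adjusted P ran from 0.0520 to 0.802.

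The call of Pdgfc was not kept in every fit that left out 1 mouse. It was lost when BLM 1, BLM 2, BLM 3, BLM+HBO 1 or BLM+HBO 3 was left out, with edgeR log2 fold changes between -1.02 and -0.67. Without BLM+HBO 2, the log2 fold change was -1.61 with an adjusted P of 0.0520 by edgeR. That fit called 1914 of 17879 tested genes, beside 1098 of 17465 with all mice. In it 267 genes passed an adjusted P of 0.05, beside 0 with all mice. Relative to the BLM mean, Pdgfc stood at 28.5% in BLM+HBO 1, 89.5% in BLM+HBO 2 and 36.7% in BLM+HBO 3. In bulk tissue, fewer cells of a type and less RNA per cell cannot be told apart, here and for all genes that follow.

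Pdgfa (ENSMUSG00000025856.15, chromosome 5, 138976014 to 138997370, minus strand) encodes PDGF-A, the alpha receptor ligand of alveolar epithelium. It read 107, 127, 193 and 147 CPM in the BLM mice and 156, 167 and 173 CPM in the BLM+HBO mice. BLM 3 was the highest of the 7, and the 3 BLM+HBO mice lay close together above the other BLM mice. The means were 143 ± 36.6 CPM (SD, n = 4) and 165 ± 8.72 CPM (SD, n = 3). The log2 fold change was 0.20 (SE 0.18, 95% interval -0.20 to 0.61, adjusted P = 0.707 by edgeR). Without BLM 3 the log2 fold change was 0.38 with an unadjusted P below 0.05, an adjusted P of 0.380 and a fold under 1.5. Of the exonic bases of Pdgfa, 26.1% (813 of 3119) lay under an exon of 6330403L08Rik on the opposite strand, and reads in that stretch were left out by unstranded counting.

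Pdgfb (ENSMUSG00000000489.7, chromosome 15, 79995874 to 80014977, minus strand) encodes PDGF-B, the ligand that recruits pericytes to endothelium. Its level was 216, 208, 246 and 267 CPM in the BLM mice and 158, 242 and 222 CPM in the BLM+HBO mice. BLM+HBO 1 was the lowest of the 7, and the other BLM+HBO mice lay inside the BLM range. The means of 235 ± 27.3 CPM (SD, n = 4) and 208 ± 44.3 CPM (SD, n = 3) differed by a log2 fold change of -0.18 (SE 0.16, 95% interval -0.54 to 0.19, adjusted P = 0.721 by edgeR). Dropping BLM+HBO 2 moved the Pdgfb estimate to -0.30, whereas it became -0.0136 once BLM+HBO 1 was dropped.

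Pdgfd (ENSMUSG00000032006.15, chromosome 9, 6168584 to 6378850, plus strand) encodes PDGF-D, the other masked ligand. Its level was 22.4, 24.0, 16.3 and 21.5 CPM in the BLM mice and 22.8, 23.6 and 19.8 CPM in the BLM+HBO mice. All 3 BLM+HBO mice lay within the BLM range. The means were 21.0 ± 3.35 CPM (SD, n = 4) and 22.1 ± 2.03 CPM (SD, n = 3), with a log2 fold change of 0.07 (SE 0.16, 95% interval -0.28 to 0.42, adjusted P = 0.909 by edgeR). The intervals of Pdgfa, Pdgfb and Pdgfd exclude a fall as large as the fitted one of Pdgfc. However, the interval of Pdgfc itself, -1.87 to -0.04, overlaps each of them. A difference between the ligands' fold changes was tested only for the ratios given below.

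Of the receptors, Pdgfra (ENSMUSG00000029231.15, chromosome 5, 75152292 to 75198215, plus strand) encodes the alpha receptor of fibroblasts. Its level was 355, 362, 208 and 272 CPM in the BLM mice and 172, 258 and 195 CPM in the BLM+HBO mice. BLM 3 was below BLM+HBO 2, which is where the groups overlapped, and BLM+HBO 1 and BLM+HBO 3 were below all BLM mice. The means were 299 ± 73.5 CPM (SD, n = 4) and 208 ± 44.2 CPM (SD, n = 3).

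The log2 fold change of Pdgfra was -0.52 (SE 0.21, 95% interval -1.003 to -0.05), with an unadjusted P below 0.05 and an adjusted P of 0.447 by edgeR. Its fold of 1.44 was short of the 1.5 required for a call. The adjusted P ran from 0.151 to 0.802 over the alternatives. The unadjusted P rose above 0.05 when BLM 1, BLM 2, BLM+HBO 1 or BLM+HBO 3 was dropped, with log2 fold changes between -0.48 and -0.41. Without BLM 3 it was -0.66 and without BLM+HBO 2 it was -0.71, and Pdgfra was called in both. Those fits called 1281 of 17227 and 1914 of 17879 tested genes.

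Pdgfrb (ENSMUSG00000024620.11, chromosome 18, 61045150 to 61085061, plus strand) encodes the beta receptor of pericytes and smooth muscle precursors. It read 263, 284, 207 and 266 CPM in the BLM mice and 115, 260 and 155 CPM in the BLM+HBO mice. BLM+HBO 1 and BLM+HBO 3 were below every BLM mouse, and BLM+HBO 2 was just below BLM 1 and BLM 4 and above BLM 3. The means were 255 ± 33.3 CPM (SD, n = 4) and 177 ± 75.2 CPM (SD, n = 3), and the wide SD of the second group came with BLM+HBO 2, which stood at 102% of the BLM mean beside 45.0% and 60.9% for the other 2 mice.

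The log2 fold change of Pdgfrb was -0.53 (SE 0.25, 95% interval -1.08 to 0.03), with an unadjusted P just above 0.05 and an adjusted P of 0.489 by edgeR. DESeq2 gave an unadjusted P below 0.05 with an adjusted P of 0.392. By limma-trend the log2 fold change was -0.60, past both unadjusted thresholds, and the adjusted P was 0.415. Without BLM+HBO 2, edgeR gave a log2 fold change of -0.92 with an adjusted P of 0.0450, the lowest over the alternatives, which reached 0.814 at the other end. In the fit without BLM+HBO 2, 267 of 17879 tested genes had an adjusted P below 0.05.

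**Figure D2:**
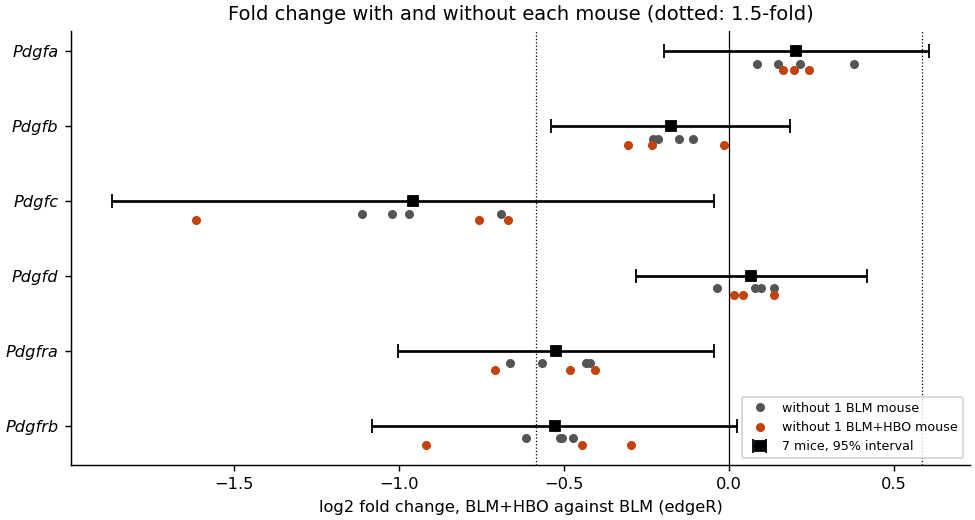
log2 fold change of BLM+HBO against BLM (x axis) for each PDGF gene, with the edgeR estimate over 7 mice and its 95% interval (black squares and bars) and the estimates with each BLM mouse (grey) or BLM+HBO mouse (orange) left out. The estimates of Pdgfc, Pdgfra and Pdgfrb were negative in all 7 of these fits, and the lowest in each was the one without BLM+HBO 2.

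Divided by exonic length, the levels could be set beside each other. In BLM lungs the order in CPM per kb of exon was Pdgfb at 56.4 ± 6.56, Pdgfrb at 46.5 ± 6.08, Pdgfa at 46.0 ± 11.7, Pdgfra at 29.9 ± 7.33, Pdgfd at 6.67 ± 1.06 and Pdgfc at 3.19 ± 1.15 (SD, n = 4). Pdgfrb and Pdgfa did not differ beyond their SDs. Pdgfb stood above Pdgfrb, and Pdgfa above Pdgfra, by more than either SD, although single mice overlapped in both pairs. Within a library, Pdgfb was below Pdgfrb in BLM 2, and Pdgfa was below Pdgfra in BLM 1. Pdgfra, Pdgfd and Pdgfc were apart from each other in every mouse. In BLM+HBO lungs the order in CPM per kb was Pdgfa at 53.0 ± 2.79, Pdgfb at 49.9 ± 10.6, Pdgfrb at 32.3 ± 13.7, Pdgfra at 20.8 ± 4.40, Pdgfd at 7.00 ± 0.64 and Pdgfc at 1.65 ± 1.06 (SD, n = 3). There the means of Pdgfa and Pdgfb lay within the SD of Pdgfb, and those of the receptors within the SD of Pdgfrb. Pdgfb stood above Pdgfrb by more than either SD, with ranges that overlapped. Within each BLM+HBO library, however, Pdgfb was above Pdgfrb (37.9 and 20.9, 58.3 and 47.5, 53.5 and 28.3 CPM per kb). Pdgfrb was above Pdgfra within every library of both groups, by 1.22 to 1.85 times. The masked ligands were the lowest of the family in both groups. These levels per kb use the union of annotated exons, and the Pdgfa value lacks the reads of the stretch left out of counting.

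Ratios of 2 members within a library do not depend on its depth. The log2 ratio of Pdgfd to Pdgfc per kb averaged 1.11 ± 0.55 in BLM lungs and 2.27 ± 0.81 in BLM+HBO lungs. On the linear scale Pdgfd exceeded Pdgfc 1.47, 2.76, 1.66 and 3.23 times in the BLM mice and 7.96, 2.62 and 5.35 times in the BLM+HBO mice. BLM+HBO 1 and BLM+HBO 3 were above all BLM mice, and BLM+HBO 2 was among them. The difference of 1.15 on the log2 scale gave P = 0.143 in a two-sided exact permutation test over the 35 assignments, whose smallest possible P is 0.0286, and 0.214 after Benjamini-Hochberg adjustment over 3 ratios. Without BLM+HBO 2 the difference was 1.59 (unadjusted P = 0.0667, same exact permutation test, with fewer assignments).

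The log2 ratio of Pdgfb to Pdgfa averaged 0.32 ± 0.28 in BLM and -0.11 ± 0.27 in BLM+HBO lungs, a difference of -0.43 (P = 0.143, adjusted P = 0.214, same exact permutation test). The groups overlapped, because BLM 3 at -0.06 lay below BLM+HBO 2 at 0.13. The log2 ratio of the beta to the alpha receptor was 0.66 ± 0.22 in BLM and 0.57 ± 0.30 in BLM+HBO lungs, a difference of -0.09 (P = 0.686, adjusted P = 0.686, same exact permutation test). Of the 3 receptor values in BLM+HBO lungs, 0.28 was the lowest of the 7 mice and 0.89 the highest. Without BLM+HBO 2 the difference was -0.55 for Pdgfb to Pdgfa and -0.25 for the receptors. The unadjusted P values were 0.2 and 0.267 by the same exact permutation test, with fewer assignments.

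**Figure D3:**
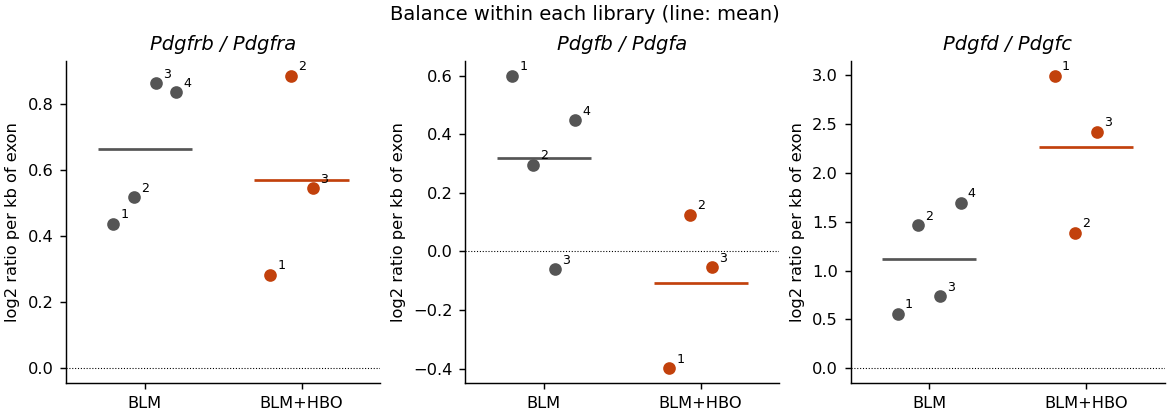
log2 ratio per kb of exon (y axis) of Pdgfrb to Pdgfra, Pdgfb to Pdgfa and Pdgfd to Pdgfc in each BLM (grey) and BLM+HBO (orange) mouse, numbered by replicate, with group means as lines. The groups overlap in all 3 panels, and Pdgfd to Pdgfc is highest in BLM+HBO 1 and BLM+HBO 3.

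Next came the other genes of the pathway, in 5 lists with 72 genes. Of these, 12 (16.7%) were called by edgeR's unadjusted rule, 11 of them lower, beside 6.29% called and 2.89% called lower among all tested genes. These lists, and the marker lists below, were chosen with earlier results of these data known. Their counts are therefore a description and not a test of the pathway. No overlap between the groups was seen in 15 of the 72, 14 of them lower, beside 8.77% and 4.72% of all genes. None passed an adjusted P of 0.05 by edgeR or limma-trend, 20 had an unadjusted P below 0.05 by edgeR, and 3 passed an adjusted P of 0.05 by DESeq2. The median log2 fold change was -0.13. Of the 12 called genes, 5 were called in every fit that left out 1 mouse, namely Myc, Ccl2, Ccl7, Has2 and Flt3l.

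Among the proteins that cleave or bind PDGFs, 12 genes were listed. Of these, 3 fell (Plau, Plat and A2m), 0 rose, and all 12 had a negative log2 fold change, with a median of -0.50, beside 48.8% of all tested genes with a negative one. Plau, the urokinase that can unmask PDGF-D, read 52.6, 49.5, 52.7 and 46.1 CPM in the BLM mice and 15.5, 44.5 and 23.5 CPM in the BLM+HBO mice. All BLM+HBO mice were below all BLM mice, and the log2 fold change of Plau was -0.85 (SE 0.29, adjusted P = 0.423 by edgeR).

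Plat, the tissue plasminogen activator that unmasks PDGF-C, read 146, 131, 104 and 111 CPM in the BLM mice and 44.0, 94.5 and 92.2 CPM in the BLM+HBO mice. The groups of Plat did not overlap either, with a log2 fold change of -0.67 (SE 0.25, adjusted P = 0.434 by edgeR). A2m, a protease inhibitor in plasma that also binds PDGF, was scarce, with a mean of 3.81 CPM in BLM and 1.44 CPM in BLM+HBO lungs and a log2 fold change of -1.40 (SE 0.61, adjusted P = 0.467 by edgeR), which was -2.15 without BLM+HBO 2. Furin, which trims PDGF-A and PDGF-B, read 294, 273, 248 and 259 CPM in the BLM mice and 126, 224 and 190 CPM in the BLM+HBO mice without overlap. Its log2 fold change was -0.58 (SE 0.18, adjusted P = 0.423 by edgeR), and the fold of 1.49 fell just short of the threshold.

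Other binding proteins of the list did not pass the rule. Lrp1, a receptor that associates with the beta receptor, had a log2 fold change of -0.56 (adjusted P = 0.471), Pdgfrl, a receptor-like protein without a kinase, -0.90 (adjusted P = 0.492), and Sparc, a matrix protein that binds PDGF-B, -0.44 (adjusted P = 0.494 by edgeR). The co-receptor Nrp1 and the protease St14 had log2 fold changes of -0.02 and -0.06. The number of these 12 genes called moved between 0 without BLM+HBO 1 and 7 without BLM+HBO 2. It was 1 without BLM 1 and 5 without BLM 3 or BLM 4, and limma-trend called 6. The call of Plau was lost without BLM+HBO 1 or BLM+HBO 3, that of Plat without BLM 1 or BLM+HBO 1, and that of A2m with any of BLM 1, BLM 2, BLM+HBO 1 or BLM+HBO 3 left out.

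The signalling proteins downstream of the receptors showed smaller differences. Of 32 genes for adaptors, kinases, phosphatases and transcription factors, 1 fell and 0 rose, with a median log2 fold change of -0.08. That 1 call cannot be set apart from the 2.89% of all tested genes called lower. The gene that fell was Grb10, an adaptor that binds activated tyrosine kinase receptors, with 166, 134, 113 and 113 CPM in the BLM mice and 63.9, 101 and 88.4 CPM in the BLM+HBO mice. These groups did not overlap, the log2 fold change was -0.64 (SE 0.19, adjusted P = 0.423 by edgeR), and the call was lost without BLM 1 or BLM+HBO 1. Another 5 genes had an unadjusted P below 0.05 at a fold under 1.5, among them the kinase Akt1 at -0.27 (adjusted P = 0.449) and the phosphatase Ptpn1 at -0.25 (adjusted P = 0.462).

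Early genes that PDGF is known to induce in cultured fibroblasts held 6 of the 12 calls. Of 13 genes, 6 fell and 0 rose, 12 had a negative log2 fold change, and the median was -0.65. Such genes also respond to many other stimuli and in many other cells, macrophages among them. Ccl7, a monocyte chemokine, read 32.5, 31.6, 22.8 and 26.5 CPM in the BLM mice and 3.25, 13.5 and 3.15 CPM in the BLM+HBO mice. The groups of Ccl7 did not overlap, and it fell 4.29-fold (log2 fold change -2.10, SE 0.48, adjusted P = 0.423 by edgeR and 0.00166 by DESeq2).

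Ccl2, its neighbour on chromosome 11 and another monocyte chemokine, read 60.8, 45.9, 34.2 and 37.2 CPM in the BLM mice and 3.41, 23.2 and 5.51 CPM in the BLM+HBO mice. It fell 4.17-fold without overlap (log2 fold change -2.06, SE 0.56, adjusted P = 0.423 by edgeR and 0.148 by DESeq2). Has2, which makes hyaluronan, read 23.0, 9.52, 8.13 and 17.3 CPM in the BLM mice and 1.12, 6.22 and 3.26 CPM in the BLM+HBO mice. It fell 4.08-fold without overlap (log2 fold change -2.03, SE 0.54, adjusted P = 0.423 by edgeR and 0.0162 by DESeq2). With BLM+HBO 2 left out, the log2 fold changes were -3.15 for Ccl7, -3.30 for Ccl2 and -2.69 for Has2, and with any other mouse left out the weakest were -1.75, -1.65 and -1.62.

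Myc, a growth regulator, read 39.3, 30.4, 42.9 and 26.5 CPM in the BLM mice and 19.1, 24.6 and 14.3 CPM in the BLM+HBO mice, again without overlap. Its log2 fold change was -0.85 (SE 0.22, adjusted P = 0.423 by edgeR and 0.0475 by DESeq2). Cxcl1, a neutrophil chemokine, and Egr2, a transcription factor, were called at log2 fold changes of -1.66 (adjusted P = 0.423) and -0.65 (adjusted P = 0.441), with groups that overlapped. The call of Cxcl1 was lost without BLM+HBO 3, and that of Egr2 with any of BLM 1, BLM 4, BLM+HBO 1 or BLM+HBO 3 left out. The classic serum response genes did not follow them as one, since Fos had a log2 fold change of -0.01 (adjusted P = 0.997) with 140 CPM in BLM+HBO 1 and 29.5 CPM in BLM+HBO 3. Junb, at -0.40 (adjusted P = 0.435), kept the groups apart at a fold of 1.32.

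Relatives of the family were mixed. Of 9 ligands of the wider VEGF and PDGF family and of the sister receptor kinases, 1 fell and 1 rose, with a median log2 fold change of 0.01. Among 9 genes, such single calls cannot be set apart from the 2.89% called lower and 3.4% called higher of all tested genes. Pgf, the placental growth factor, fell from 25.7 ± 3.78 CPM (SD, n = 4) to 14.9 ± 5.74 CPM (SD, n = 3), without overlap, at a log2 fold change of -0.78 (SE 0.25, adjusted P = 0.423 by edgeR), a call that was lost without BLM+HBO 1. Flt3l, the ligand of the haematopoietic kinase Flt3, read 8.31, 13.0, 20.4 and 18.0 CPM in the BLM mice and 28.6, 24.4 and 29.2 CPM in the BLM+HBO mice. It rose without overlap, at a log2 fold change of 0.88 (SE 0.26, adjusted P = 0.423 by edgeR). Of the 6 relatives among the receptors 0 were called, with log2 fold changes of 0.22 for Kit, whose gene lies downstream of Pdgfra on chromosome 5, and -0.23 for Csf1r, whose gene lies downstream of Pdgfrb on chromosome 18.

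**Figure D4:**
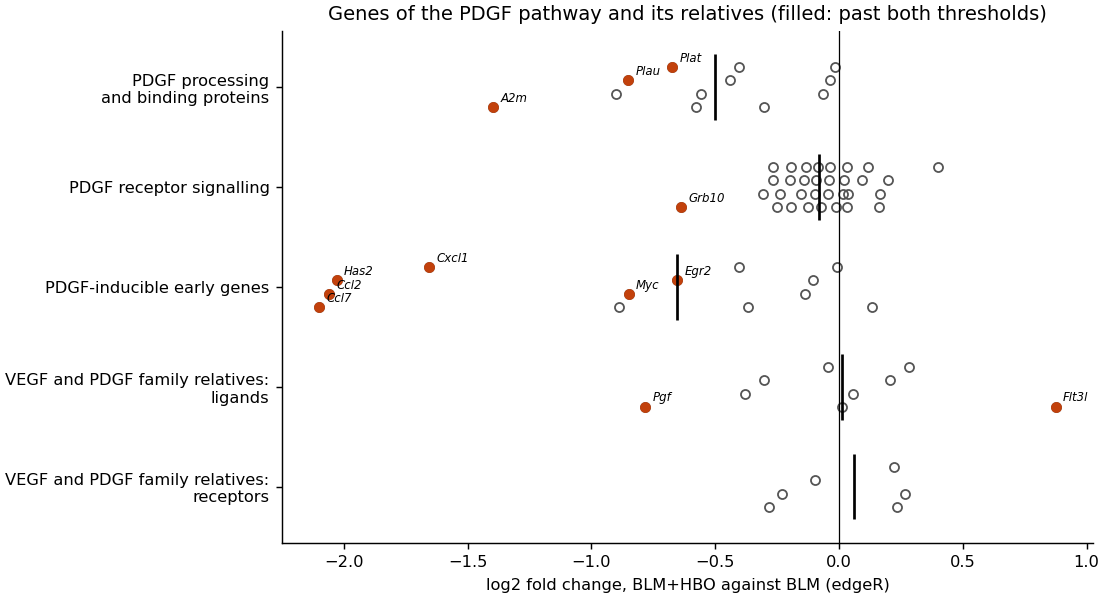
log2 fold change of BLM+HBO against BLM by edgeR (x axis) for the genes of 5 PDGF-related lists, 1 point per gene, with the list's median as a black line and the genes past both unadjusted thresholds filled and named. The filled genes are lower except Flt3l, and the processing and inducible lists lie mostly below 0.

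Markers of the cells that carry the receptors were examined beside them. Their counts, and those of the other marker lists below, stand beside the shares of all tested genes. Of all tested genes, 2.89% were called lower, 3.4% were called higher and 48.8% had a negative log2 fold change. Of 10 activated fibroblast markers, 5 fell (Cthrc1, Col1a1, Col3a1, Tnc and Runx1) and all 10 had a negative log2 fold change, with a median of -0.91. Each of the 5 calls was lost without BLM 1 and without BLM+HBO 3. Their summed level ran from 8528 to 13016 CPM in the BLM mice and was 2177, 8970 and 4381 CPM in BLM+HBO 1 to 3, the same order as Pdgfc, Pdgfra and Pdgfrb in these 3 mice. Alveolar fibroblast markers, for cells that Pdgfra also marks, had 2 of 12 called higher (Tcf21 and Inmt), a median of 0.25 and sums of 2213 to 3272 CPM in BLM and 2775 to 4016 CPM in BLM+HBO lungs. Adventitial fibroblast markers had 1 of 9 called each way (Dpp4 higher, Dcn lower), with sums of 1352 to 1422 CPM and 1118 to 1418 CPM. The 4 calls in these 2 lists were each lost without BLM+HBO 1.

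Of 12 pericyte markers 0 were called, with a median log2 fold change of -0.06 and sums of 1066 to 1286 CPM in BLM and 922 to 1247 CPM in BLM+HBO lungs, where BLM+HBO 1 was the lowest and BLM+HBO 2 the highest of its group as for Pdgfrb. Among the smooth muscle markers, 1 of 10 fell (Acta2), a single call that 10 genes cannot set apart from the 2.89% of all genes, with sums of 992 to 1326 CPM and 826 to 1171 CPM. Endothelial markers, for the cells that make PDGF-B, had 0 of 10 called and sums of 2820 to 3855 CPM and 3364 to 4330 CPM. All 10 had a positive log2 fold change, with a median of 0.22. Platelet and megakaryocyte markers had 4 of 9 tested genes called higher, with sums of 55.0 to 68.7 CPM in BLM lungs and of 172, 71.5 and 65.3 CPM in BLM+HBO 1 to 3, and Gp1bb was at 0 in every mouse. Of these 4 calls, 3 were lost without BLM+HBO 1. Pdgfb itself was lowest in BLM+HBO 1, where the platelet sum was highest.

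Macrophage markers fell in 7 of 12, with a median log2 fold change of -0.69 and sums of 1876 to 3457 CPM in BLM and 1231 to 2186 CPM in BLM+HBO lungs, and 5 of the 7 calls held with each mouse left out. For the epithelium that makes PDGF-A, 0 of 10 alveolar type 1 markers were called (5426 to 7480 CPM and 6781 to 7898 CPM) and 2 of 10 alveolar type 2 markers rose (9776 to 17831 CPM and 12508 to 29970 CPM). The log2 fold change was positive for 6 of the type 1 markers, with a median of 0.06, and for all 10 type 2 markers, with a median of 0.43. Mesothelial markers fell in 2 of 7 (Msln and Wt1, sums of 679.5 to 1126 CPM and 395 to 764 CPM), and 3 of 10 T and B cell markers rose (423 to 917 CPM and 325 to 714 CPM). Heart muscle markers rose in 11 of 12, with sums of 73.5 to 201 CPM in BLM lungs and of 755, 592 and 174 CPM in BLM+HBO 1 to 3. The part of all these differences in the PDGF results was not tested.

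**Figure D5:**
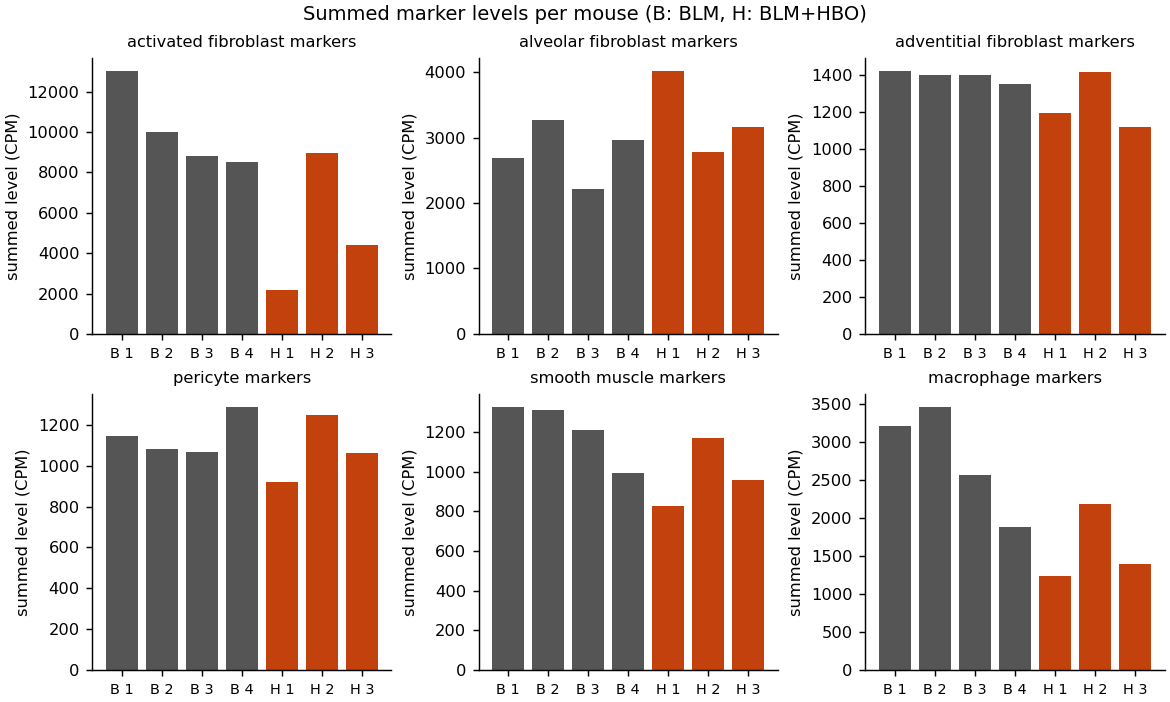
Summed level in CPM (y axis, from 0) of 6 marker lists in each mouse, BLM in grey (B 1 to B 4) and BLM+HBO in orange (H 1 to H 3). The activated fibroblast sum was 2177 and 4381 CPM in BLM+HBO 1 and 3 and 8970 CPM in BLM+HBO 2, while the pericyte sums of the groups overlap.

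Genes whose pattern over the 7 mice was most like that of each PDGF gene were found by the root-mean-square difference of log2 CPM, each gene centred on its own mean, among 15805 genes with a mean of at least 1 CPM. For Pdgfc, the genes near it included Lum at a difference of 0.151 and C1qc at 0.157, beside a spread of 0.768 for Pdgfc itself. Next to Pdgfra came Spon1 at 0.0503, Pkd2 at 0.0781 and Gm45606 at 0.0839, beside a spread of 0.387. Pdgfrb was nearest to Rcor2 at 0.0584, Hivep3 at 0.0770 and Emilin1 at 0.0897, beside a spread of 0.456.

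The ligands without a call had smaller spreads than Pdgfc, Pdgfra and Pdgfrb. Pdgfa lay nearest to Arrdc1 at 0.0531, Sirt7 at 0.0652 and Mob3c at 0.0754, beside a spread of 0.265. Pdgfb lay nearest to Ipo4 at 0.0447, Hdac6 at 0.0554 and Midn at 0.0599, beside a spread of 0.228. For Pdgfd the nearest were Cd38 at 0.0385, Hivep1 at 0.0436 and Tnfrsf19 at 0.0555, beside a spread of 0.181. None of the 6 PDGF genes was among the 3 nearest of another.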

How the data were processed

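Right lung lobes of 7 mice, 4 BLM and 3 BLM+HBO, gave 1 RNA-seq library each. Per the submitters' processing notes and the methods, the authors mapped trimmed paired reads to GRCm38 with HISAT2 2.2.0 and made the deposited raw counts per gene with featureCounts (2.2.0 in the notes) at default settings, which ignore strand and leave out reads over several genes or places. The annotation release is not given in the sources used here. Symbols came from GENCODE vM21, which named 55141 of 55401 genes, 54349 of them with the same identifier version. Totals ran from 18157161 to 26365969 counts per mouse.

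Low genes were dropped by filterByExpr with a minimum count of 10 and a minimum total of 15. The rest were scaled by TMM (factors 0.964 to 1.036) and tested with edgeR 4.0.16 under R 4.3.3 (quasi-likelihood, common biological coefficient of variation 0.222), with BLM as the reference and Benjamini-Hochberg adjustment over 17465 genes. A call needed an unadjusted P below 0.05 and a fold above 1.5. Log2 CPM used a prior count of 2. Alternatives were DESeq2 1.42.0, limma-trend (limma 3.58.1), RLE and upper-quartile factors, no filter, a minimum of 1 CPM in 3 mice, a replicate block, robust empirical Bayes, other thresholds and each mouse left out. Ratios were tested by exact permutation in Python 3.11.15. The scripts were tested on simulated data. P-values measure the spread between mice.

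The members, the lists and the alternatives were chosen with earlier results of these data known. The genes named were the 6 PDGF genes, members of the lists where a list is described, and the 3 genes nearest in pattern to each PDGF gene. Some genes that the rule names are not reported here. The lists were PDGF processing and binding proteins, receptor signalling, inducible early genes, family relatives (ligands and receptors), and markers of alveolar, adventitial and activated fibroblasts, pericytes, smooth muscle, endothelium, alveolar type 1 and 2 cells, macrophages, platelets, mesothelium, heart muscle, and T and B cells.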

Additional observations from a re-analysis of the deposited data

Results flagged for a closer look

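Of 10 groups of BLM values examined (the log2 CPM of the 6 PDGF genes, 3 ratios and the total count), 1 held a mouse far from the others. The total count of BLM 4 was 19002242 and those of the other BLM mice were 18436336 to 18452895, a gap of 0.971 of the group's range that is past Dixon's 95% critical value. Chance gives such a gap in about 1 in 20 groups. The PDGF levels themselves held no such mouse.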

How the results depend on the processing

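The number of PDGF genes called was 1 (Pdgfc) under DESeq2, RLE and upper-quartile factors, both other filters, robust empirical Bayes and the replicate block, and 2 by limma-trend. It was 0 at a fold above 2, at P below 0.01 and at an adjusted P below 0.05, and 0 to 3 with a mouse left out. The pathway count of 12 was 5 at a fold above 2, 6 at P below 0.01, 0 at an adjusted P below 0.05, and 6 (without BLM+HBO 1) to 16 (without BLM+HBO 2) with a mouse left out. Over all tested genes the calls ran from 659 (without BLM+HBO 1) to 1914 (without BLM+HBO 2). The log2 fold change with a mouse left out ran from 0.0863 to 0.38 for Pdgfa, -0.30 to -0.0136 for Pdgfb, -1.61 to -0.67 for Pdgfc, -0.71 to -0.41 for Pdgfra and -0.92 to -0.30 for Pdgfrb. Pdgfd ran from -0.0368 to 0.14 and changed sign without BLM 3. Pdgfrb passed P below 0.05 with DESeq2 (-0.53), limma-trend (-0.60) and no filter on low counts (-0.54). The log2 ratio of Pdgfrb to Pdgfra ran from -0.25 to 0.0517 and changed sign without BLM+HBO 1. The ratios of Pdgfb to Pdgfa and Pdgfd to Pdgfc kept their sign in every alternative run. The causes were not tested.

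The labels give no pairing of the mice. Same-number correlations of deviations were -0.00797, -0.0660 and 0.161, and those between different numbers ran from -0.179 to 0.165. So few values cannot exclude a pairing. With the replicate block, all calls numbered 1258 beside 1098, Pdgfc stood at -1.24, and Pdgfrb at -0.58 with an unadjusted P below 0.05 by edgeR. Depth set little of the error of the PDGF genes, whose lowest count was 87 reads, for Pdgfc in BLM+HBO 1.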
